A study of Drosophila melanogaster with 20 samples.

Results

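Heads of midlife male Drosophila melanogaster that carry a mutant copy of chameau (chm) were compared with heads of midlife wild-type males across the whole measured transcriptome. The comparison takes 9 of the 20 libraries of the series, the 5 midlife chm/+ libraries CHMo2, CHMo3, CHMo5, CHMo11 and CHMo12 and the 4 midlife wild-type libraries 2uo1, 2uo2, 2uo4 and 2uo5, chosen by the age and genotype in their column names. All 9 come from adult males aged 22 to 23 days that had been kept in populations of both sexes, and each library was made from 25 to 30 pooled heads, with 2.5 µg of RNA used to select polyadenylated RNA for single reads of 50 bp. The labels give the genotypes as chm/+ and wt and name neither the allele nor the genetic background, so the mutant copy and any linked or background variants cannot be told apart. They also do not say whether replicate pools came from separate cultures, and the p values measure only the spread between libraries, which may be technical. The 11 libraries of 7-day-old males, 6 of chm/+ and 5 of wild type, serve here to show where the midlife difference departs from the young one.

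Chameau is a histone acetyltransferase of the MYST family, enzymes that move an acetyl group from acetyl-CoA to lysines of histone tails. In flies it is known for roles in Polycomb-mediated silencing, in transcription driven by the JNK pathway and in the choice of replication origins. A fly head holds brain, eyes, antennae, muscle, cuticle, fat body and circulating haemocytes, and in such bulk RNA fewer cells of a type and less RNA per cell cannot be told apart.

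The table gives 9831 genes in normalized counts, which the authors had scaled to a common library size, and the 9 midlife libraries sum to between 27820648 and 30010183. Read depth is unknown, so precision rests on the spread between libraries. Differences are given as log2 of chm/+ over wild type after adding 14.48 normalized counts to every value, which understates the difference of low genes, and a gene is called at an adjusted p under 0.05 over all 9831 genes in limma. Correlations across genes between midlife libraries were 0.98 to 0.996 within a group and 0.967 to 0.992 between groups. The first 10 and last 10 columns of the table, each with all 4 groups, differed along the leading component, which held 47.0% of the variance within groups, although 2uo2 of the last 10 lay on the side of the first 10. No label names a batch, and these column sets are used only to recompute results. Of the midlife libraries 2uo1 (0.436) and CHMo12 (0.461) had the lowest array weights in limma, the weight falling with a library's deviation from its group. Values per library follow the order 2uo1, 2uo2, 2uo4, 2uo5 and CHMo2, CHMo3, CHMo5, CHMo11, CHMo12.

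The targeted gene was lower in every chm/+ library. chm (FBgn0028387, arm 2L) stood at 678, 613, 591 and 571 in the wild-type libraries and 329, 304, 337, 364 and 346 in the chm/+ libraries, and the groups were far apart. The log2 difference was -0.84 (SE 0.07, adjusted p = 8.05e-07), 1.79-fold lower in chm/+, and an exact two-sided permutation test over the 9 libraries gave p = 0.0159, the smallest that 5 against 4 allow. The young difference was -0.91. Between young and midlife wild type chm differed by -0.01 (adjusted p = 0.972).

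No other gene of the acetylation machinery in the lists used was called. Of 12 measured genes listed as lysine acetyltransferases, chm was lower (8.33% called, against 1.95% of all genes) and 0 were higher. The list median was -0.12 against 0.000424 over all genes, with 10 of the 12 below 0. Gcn5, the catalytic subunit of SAGA-type complexes, was at -0.21 (adjusted p = 0.547) and mof, the acetyltransferase of dosage compensation, at -0.16 (adjusted p = 0.427). enok, another MYST enzyme, was at -0.12 (adjusted p = 0.551), Tip60 at -0.09 (adjusted p = 0.602) and the CBP homologue nej at 0.04 (adjusted p = 0.904). The list also holds san, an N-terminal acetyltransferase gene, and Kat60, which encodes a microtubule-severing katanin subunit and no acetyltransferase. Partners of MYST complexes were not called either: Br140 was at -0.20 (adjusted p = 0.522), Eaf6 at -0.15 (adjusted p = 0.436), rno at -0.03 (adjusted p = 0.886) and the ING gene CG9293 at -0.02 (adjusted p = 0.909). Of 9 deacetylase and sirtuin genes 0 were called, with log2 differences from -0.16 for HDAC6 to 0.12 for Sirt6.

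Across the transcriptome the midlife genotypes differed at 192 of 9831 genes (1.95%). In chm/+ 70 genes were higher (0.712% of genes) and 122 lower (1.24%), and the lower genes differed more: 47 of them were at least 2-fold lower, against 15 at least 2-fold higher. An unadjusted p under 0.05 was reached by 1304 genes. The libraries of the 2 groups did not overlap for 66 of the 70 higher and 104 of the 122 lower genes, and over all genes for 205 with chm/+ on top (2.09%) and 235 with chm/+ below (2.39%). The count depended on single libraries: it was 112 without 2uo4 and 123 without 2uo5, and 125 without 2uo2, CHMo12 and the young library CHMy2, the 3 that earlier results of these data set apart. The higher genes numbered 38 without 2uo4, 43 without 2uo2 and 107 without 2uo1, and the lower genes 74 without 2uo4 and 76 without 2uo5. The first column set on its own gave 270 calls, 123 of them among the 192, and the second gave 16, all among the 192. Among the called genes with a value in both sets, the sign was the same in both for 65 of 65 higher and 106 of 106 lower genes. Since all 9 libraries chose these genes, that count is a description.

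The higher and the lower genes related in different ways to the young comparison, with which the midlife one shares no library. At 7 days 143 genes were called (1.45%), 88 higher and 55 lower in chm/+. Of the 70 genes higher at midlife, 30 were also higher when young (42.9%) and 68 had a positive young difference (97.1%), with medians of 0.71 at midlife and 0.46 when young. Of the 122 lower genes 23 were also lower when young (18.9%) and 80 had a negative young difference (65.6%, against 50.2% of all genes), with medians of -0.83 and -0.07. Together the 53 genes called at both ages made up 27.6% of the midlife and 37.1% of the young list, and 0 changed direction. Across genes the midlife and young differences correlated at r = 0.473 (Spearman 0.497) over all 9831, at r = 0.763 within the higher and r = -0.061 within the lower genes, where genes are not independent replicates. The scatter of midlife against young differences shows this as a higher arm that rises with the young difference and a lower arm along the vertical axis.

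**Figure D1:**
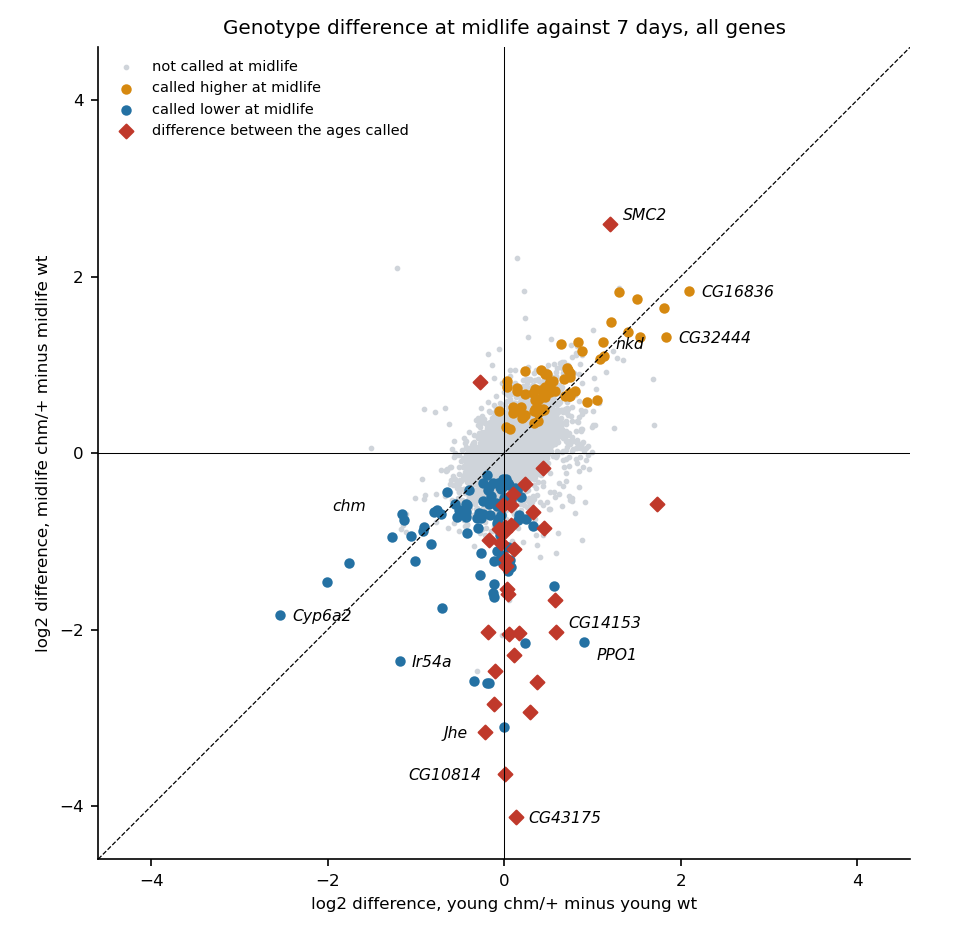
Each point is a gene, with its log2 difference between chm/+ and wild type at 7 days on the horizontal axis and at 22 to 23 days on the vertical axis, the dashed line marking equality. Genes called higher at midlife (orange) rise with the young difference (r = 0.763), with medians of 0.71 at midlife and 0.46 when young. Genes called lower (blue) spread down the vertical axis (r = -0.061), and red diamonds mark the 35 genes whose midlife and young differences themselves differed.

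The steepest called differences were toward lower levels in chm/+. CG43175, an uncharacterized gene on arm 3R, stood at 2418, 809, 2576 and 878 in the wild-type libraries and 50.7, 153, 215, 73.4 and 4.66 in the chm/+ libraries, with no overlap between the genotypes. The log2 difference of -4.12 (SE 0.50, adjusted p = 5.1e-05) corresponds to a 17.4-fold lower level. At 7 days its means were 3.68 and 5.43 in wild type and chm/+, near the bottom of the range in both. CG10814, which the reference annotation also lists as gamma-BBH, the last enzyme of carnitine synthesis, stood at 698, 823, 1054 and 549 in the wild-type libraries and 94.6, 57.5, 60.5, 36.1 and 17.3 in the chm/+ libraries. Its groups did not overlap, and it differed by -3.63 (SE 0.29, adjusted p = 2.95e-07), 12.4-fold. Its young means were 5.89 and 4.94. CG14153, with no role given in the sources used, stood at 1528, 1020.4, 1698 and 1031 in the wild-type libraries and 269, 314, 509, 237 and 256 in the chm/+ libraries, a log2 difference of -2.03 (SE 0.20, adjusted p = 5.66e-06). CHMo5 was the highest chm/+ library there, still under every wild-type library. CG30148, likewise uncharacterized, ranged from 83.4 to 157 in wild type and 19.2 to 41.2 in chm/+, a log2 difference of -1.67 (SE 0.18, adjusted p = 1.79e-05).

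Genes of serine proteases and of their inactive homologues were prominent among the lower genes. Secreted proteases and homologues of this family act in digestion, in the cascades upstream of Toll and in melanization. The gene spheroide encodes a serine protease homologue known from the pathway that activates Toll. It stood at 736, 907, 1166 and 1060.1 in the wild-type libraries and 124, 213, 328, 94.7 and 22.7 in the chm/+ libraries, with no overlap, a log2 difference of -2.85 (SE 0.41, adjusted p = 0.000268). Its neighbours on arm X in the order of measured genes, CG9673 and CG4653, were lower too. CG9673 stood at 1709, 1977, 2539 and 2684 in the wild-type libraries and 303, 531, 751, 221 and 20.7 in the chm/+ libraries, a log2 difference of -3.11 (SE 0.55, adjusted p = 0.00248). CG4653 ranged from 488 to 753 in wild type and 16.4 to 213 in chm/+ (-2.58, SE 0.37, adjusted p = 0.000268). All 3 were lowest in CHMo12 and highest among chm/+ libraries in CHMo5. CG4650, on arm 2L, stood at 175, 107, 136 and 132 in the wild-type libraries and 19.6, 20.6, 51.5, 21.4 and 7.65 in the chm/+ libraries and differed by -2.05 (SE 0.21, adjusted p = 8.44e-06). Another adjacent pair, CG30087 and CG30088 on arm 2R, was at -2.03 and -1.39, and the CG30088 call ended without 2uo5 (adjusted p = 0.0796).

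A count by serine protease number was made after these values were seen, and so describes them only. Such numbers also fall on genes not known as proteases, such as Ank2, skd and Aplip1, which were not called. The count is thus not of the family alone. Of 110 measured genes that the RefSeq gene table gives a serine protease (SP) or serine protease homologue (SPH) number, 12 were lower at midlife (10.9%, against 1.95% of all genes called) and 0 higher, with a median of -0.10. Beside the 6 genes above these were CG30098 (-2.15), CG43336 (-1.54), CG30287 (-1.21, lost without 2uo5 at adjusted p = 0.0558), CG8299 (-1.11) and the pair CG18477 and CG31780 (both -1.15), whose values lay within 10% of each other in all 20 libraries and count as 1 signal. None of the 12 was called at 7 days, where their log2 differences ran from -0.34 for CG4653 to 0.24 for CG30098. Of the 110, however, 4 others were called at 7 days, against 1.45% of all genes. Try29F and Tsp were lower in young chm/+, and CG9372 and CG31205 higher. The count was 8 to 14 when single midlife libraries were left out, 12 in the first column set (2.8% of all genes called) and 0 in the second (0.165%). CG43336 reached 1 CPM only in the midlife wild-type libraries, the group in which it was high. CG8299 also reached 1 CPM in midlife libraries alone, 2uo2 among them but not CHMo5 or CHMo12. Both passed the filter only through such libraries and are counted in the 12. CG43336 and CG8299 were each tested in 5 of the 9 fits without a midlife library and in neither column set alone. In the other fits too few libraries reached 1 CPM. CG4650 was likewise tested in neither column set alone, so the 12 called in the first column set are not the same 12 genes. In the list of serine proteases and melanization genes the called member beside spheroide and CG9673 was CG10814, which the annotation does not place in that family, and Hayan (0.09, adjusted p = 0.8), MP1 (0.07, adjusted p = 0.75) and Sp7 (0.04, adjusted p = 0.847), proteases of the melanization cascade, were not called. That list had 3 of 13 called (23.1%, against 1.95% of all genes).

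Among the lower genes were a phagocytosis receptor gene and 5 genes of integrins and the actin cytoskeleton, the 5 chosen after their values were seen and standing for no list. NimC4, a Nimrod receptor by which phagocytes take up dying cells, stood at 577, 707, 1044 and 654 in the wild-type libraries and 124, 101, 189.5, 105 and 7.86 in the chm/+ libraries, and its groups did not overlap. The log2 difference was -2.93 (SE 0.41, adjusted p = 0.000236), while the young difference was 0.30 (adjusted p = 0.725). The integrin genes scb, which encodes the alphaPS3 subunit, and ItgalphaPS4 lie next to each other on arm 2R. scb stood at 2189, 1999, 2549 and 1984 in the wild-type libraries and 1159.6, 1300.3, 1649, 1179 and 874 in the chm/+ libraries, a log2 difference of -0.84 (SE 0.12, adjusted p = 0.000357). ItgalphaPS4 ranged from 71.6 to 89.7 in wild type and 25.8 to 52.8 in chm/+ (-1.02, SE 0.15, adjusted p = 0.000357), and Itgbetanu, whose product pairs with alphaPS3 in phagocytosis, from 232 to 406 and 29.0 to 189.5 (-1.63, SE 0.28, adjusted p = 0.00173). Myo61F, an unconventional myosin gene, stood at 512, 534, 723 and 522 in the wild-type libraries and 126, 128, 253, 171 and 41.8 in the chm/+ libraries, a log2 difference of -2.04 (SE 0.28, adjusted p = 0.000194), and the cytoplasmic actin gene Act42A differed by -0.81 (SE 0.13, adjusted p = 0.0011). In each of these 5 genes the highest chm/+ library stayed under the lowest wild-type one. That held for 104 of the 122 lower genes and for 2.39% of all genes, so it is not particular to these 5.

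The broader haemocyte list went partly the same way. Haemocytes are the circulating phagocytes and crystal cells of the fly. Of 18 measured genes 2 were lower (11.1%, against 1.24% of all genes), 0 were higher, 17 were below 0, and the median was -0.27. The count was 1 to 3 without single midlife libraries, 5 in the first column set, where 2.8% of all genes were called, and 0 in the second, where 0.165% were. Beside NimC4 the called one was PPO1, the prophenoloxidase of crystal cells that starts melanization, at 638, 389.8, 509 and 212 in the wild-type libraries and 48.6, 48.4, 146, 110.2 and 85.8 in the chm/+ libraries (-2.14, SE 0.51, adjusted p = 0.0284). The PPO1 call ended without any one of 2uo4, CHMo2, CHMo3, 2uo1, 2uo2 and CHMo12 (highest adjusted p = 0.113). PPO1 did not overlap between the midlife groups, and its young difference was 0.90 (adjusted p = 0.353), with young means of 563 and 1285. The other markers were not called: Hml was at -0.44 (adjusted p = 0.463), NimC1 at -0.68 (adjusted p = 0.37), eater at -0.18 (adjusted p = 0.819) and the scavenger receptor gene crq at 0.05 (adjusted p = 0.881). The 8 haemocyte marker genes summed to 20120 to 24790 normalized counts in wild type and 16180 to 24250 in chm/+, which overlap, and the part of haemocyte number in these differences was not tested. Haemocytes also make much of the fly's basement membrane, and of 10 genes of that kind 0 were called, with a median of -0.45 and with the papilin gene Ppn at -0.85 (adjusted p = 0.077) and the collagen gene vkg at -0.51 (adjusted p = 0.281).

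Further steep differences fell on membrane, lipid and hormone genes. Tsp42Eb encodes a tetraspanin, a family of small membrane proteins that organize receptors, and CG30160 is a separate entry whose values lay within 10% of it in all 20 libraries. Tsp42Eb stood at 1215, 1587, 1786 and 2084 in the wild-type libraries and 329, 419, 594, 294 and 38.7 in the chm/+ libraries, a log2 difference of -2.60 (SE 0.47, adjusted p = 0.0031). Its cluster neighbours Tsp42Ec (-0.85) and Tsp42Ed (-0.83) were lower with overlapping libraries, and each call ended without single libraries (highest adjusted p = 0.175 and 0.222). The libraries were for Tsp42Ec 2uo4, 2uo5, CHMo2, CHMo3, 2uo1, CHMo11 and CHMo12, and for Tsp42Ed 2uo4, 2uo5, CHMo2, 2uo2, CHMo11 and CHMo12. By contrast Tsp42Eq, of the same cluster, was higher, at 9.57 to 17.9 in wild type and 29.9 to 73.9 in chm/+ (1.26, SE 0.28, adjusted p = 0.018), a call that ended without 2uo5, 2uo2 and CHMo11 in turn (highest adjusted p = 0.0606). CG7763 stood at 1545, 1410.1, 2248 and 1891 in the wild-type libraries and 261, 471, 889, 254 and 51.4 in the chm/+ libraries and differed by -2.59 (SE 0.47, adjusted p = 0.00313).

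CG1942, named Dgat2 in the current annotation after the enzyme that completes triacylglycerol synthesis, stood at 609, 391, 672 and 245 in the wild-type libraries and 45.5, 83.1, 97.5, 52.9 and 75.2 in the chm/+ libraries. Its lowest wild-type value was above the highest chm/+ value by more than the chm/+ libraries differed among themselves, and the log2 difference was -2.47 (SE 0.23, adjusted p = 2.38e-06). At 7 days the difference was -0.11 (adjusted p = 0.825). Its neighbour CG1941 was lower, -1.03 (SE 0.16, adjusted p = 0.000725), and was lower when young as well, -0.83 (adjusted p = 0.00394). Of 20 lipid storage and lipolysis genes 0 were called, with a median of -0.01.

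Juvenile hormone, which the esterase breaks down, controls metamorphosis and adult reproduction in insects. Jhe, the juvenile hormone esterase gene, stood at 1416, 1409, 2102 and 1490.0 in the wild-type libraries and 187, 226, 331, 139 and 56.6 in the chm/+ libraries, and the groups did not overlap. It differed by -3.16 (SE 0.41, adjusted p = 0.00011), 8.93-fold lower in chm/+, with a young difference of -0.21 (adjusted p = 0.802). jhamt, the methyltransferase gene of the final steps of synthesis, stood at 59.2, 79.7, 60.3 and 62.2 in the wild-type libraries and 100.1, 131, 113, 163 and 125 in the chm/+ libraries and was higher by 0.81 (SE 0.15, adjusted p = 0.00415), again without overlap. Its young difference was 0.55 (adjusted p = 0.0501). Called genes made up 16.7% of the juvenile hormone list of 12, against 1.95% of all genes. The other 10 genes of the list, such as the receptor genes Met (0.13, adjusted p = 0.451) and gce (0.08, adjusted p = 0.653) and the epoxide hydrolase gene Jheh2 (0.08, adjusted p = 0.733), were not called.

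The plot of values by library shows how the steep lower genes differ from the higher ones across the 4 groups. For the lower genes the young groups lie together at low values and the midlife groups apart. For the higher genes chm/+ lies above wild type at both ages.

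**Figure D2:**
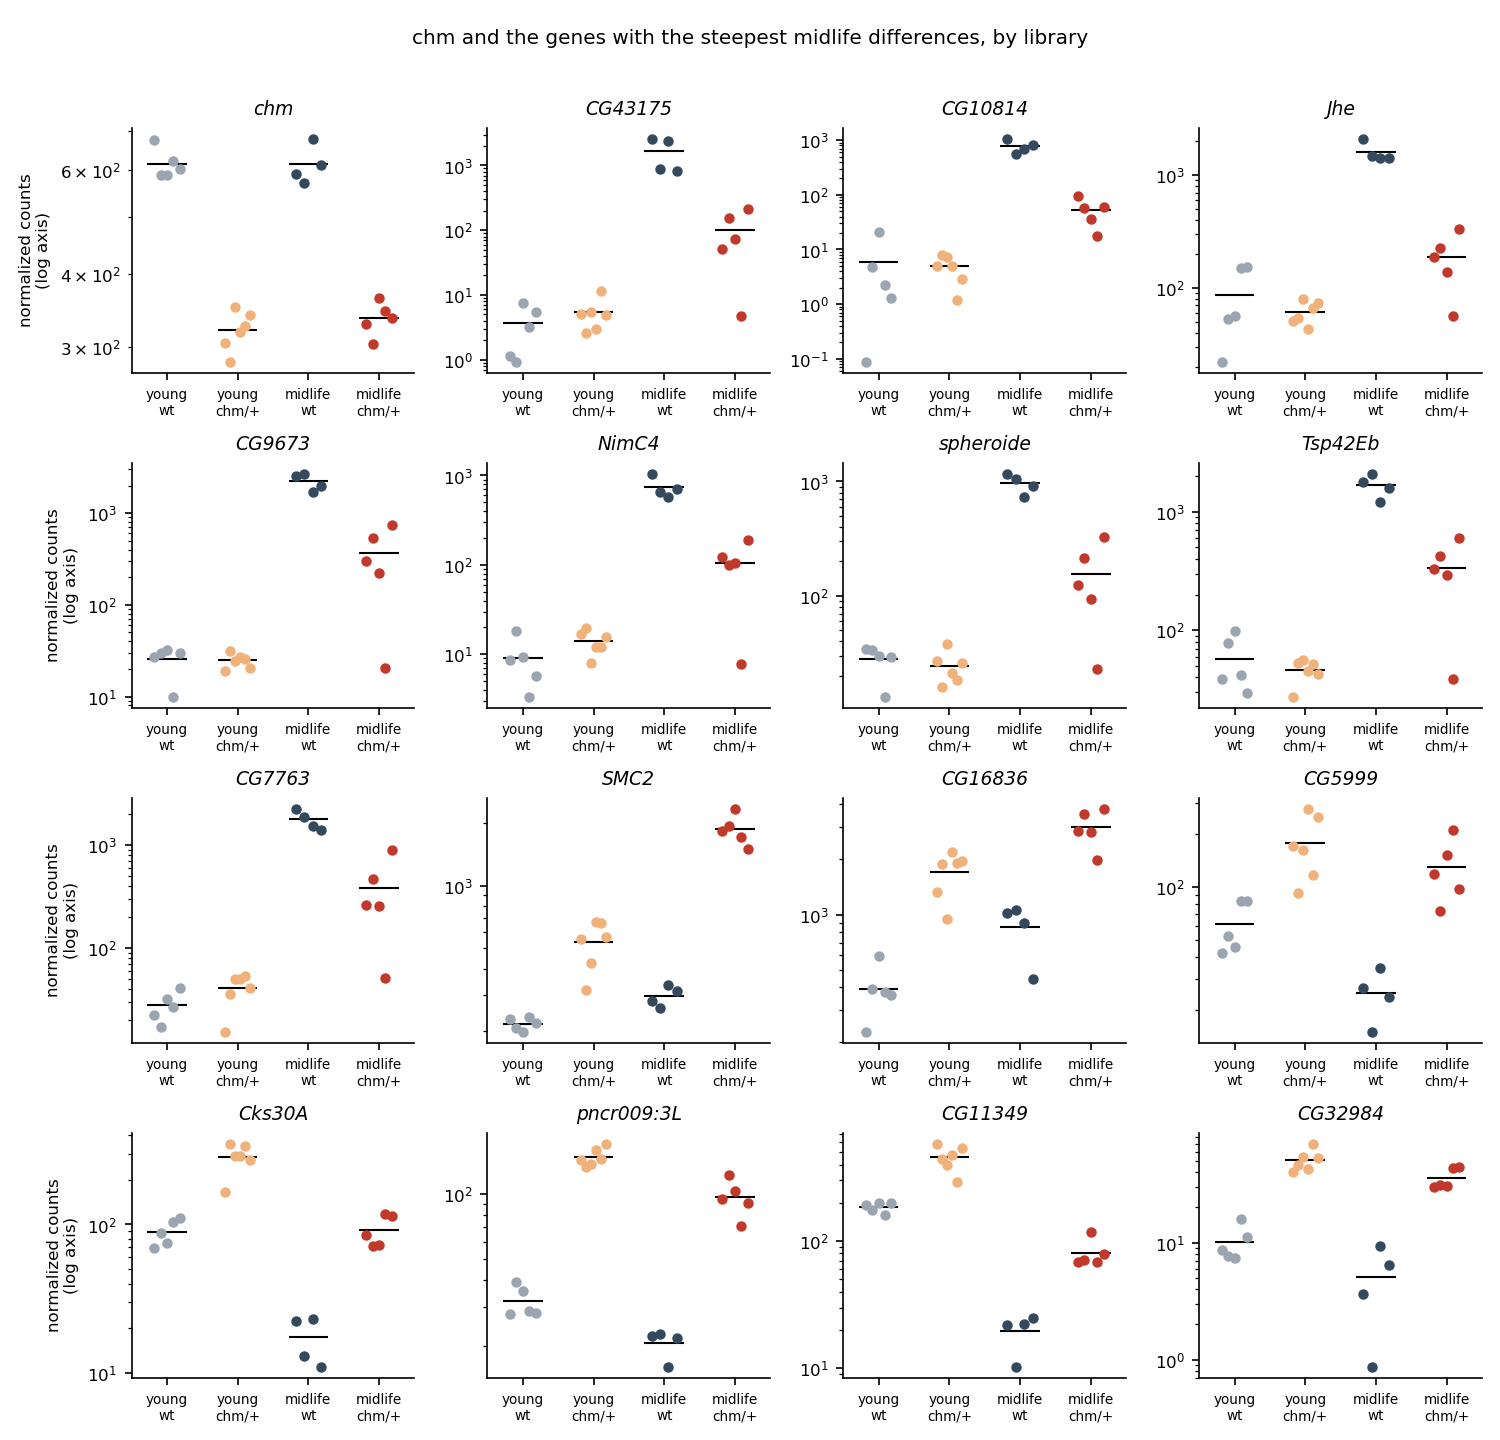
Normalized counts of chm, 8 of the lowest and 7 of the highest genes of the midlife comparison, on log axes that differ between panels, with 1 point per library and a line at the group mean. In the CG43175 panel the midlife chm/+ libraries lie at 4.66 to 215 and the midlife wild-type libraries at 809 to 2576, and in the SMC2 panel at 1507 to 2349 and 258 to 333.6.

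Library CHMo12 set the lower end of the group for most of the lower genes. It was the lowest chm/+ library for 76 of the 122, and CHMo5 was the nearest to wild type for 77. The median difference from the wild-type mean over the 122 genes was -1.0 in CHMo12, -0.58 in CHMo5, -0.85 in CHMo2, -0.82 in CHMo3 and -0.85 in CHMo11. Over the 70 higher genes the same medians ran from 0.64 to 0.74. Without CHMo12 the log2 difference was -3.59 for CG43175, -3.39 for CG10814, -2.83 for Jhe, -2.39 for CG9673, -2.40 for NimC4, -2.38 for spheroide, -2.15 for CG4653, -2.05 for CG7763 and -2.01 for Tsp42Eb, each still called. The count of lower genes was 91 without CHMo12, and what sets that library apart was not tested.

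**Figure D3:**
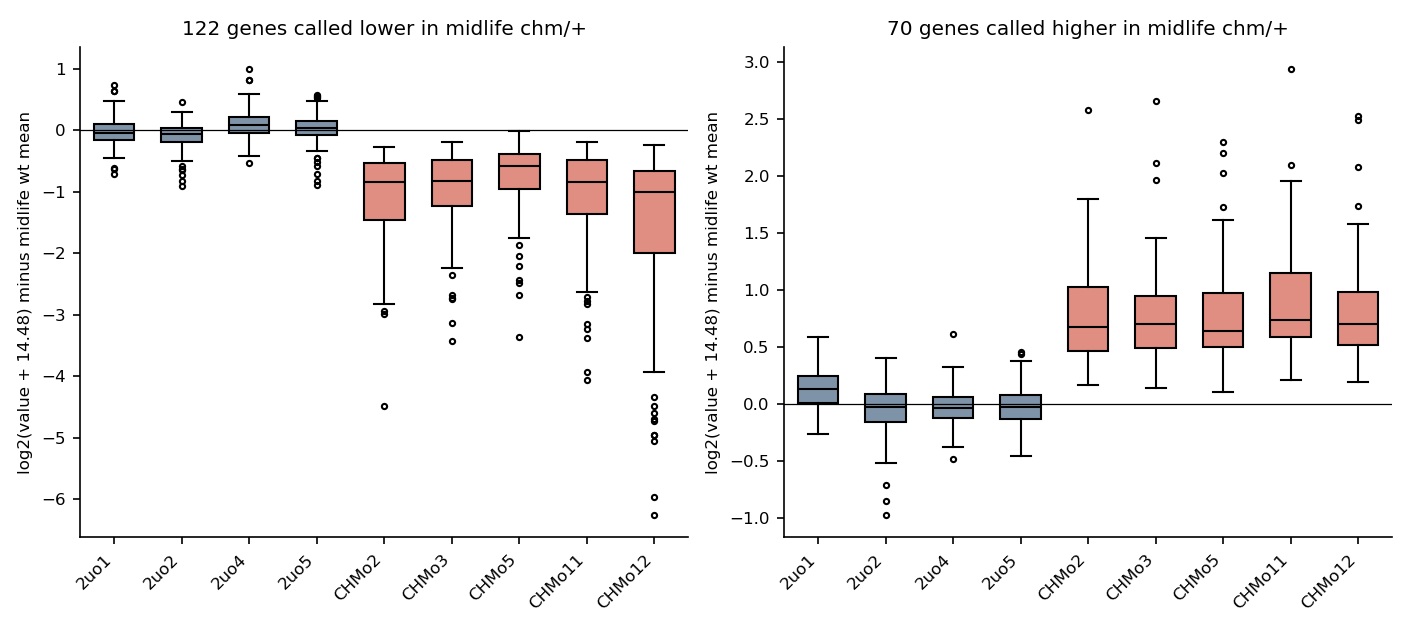
Log2 values of the 122 lower genes (left) and the 70 higher genes (right) in each midlife library, relative to the midlife wild-type mean of the gene, as boxes over genes with the median, the quartiles, whiskers to 1.5 times the quartile range and points beyond. Among the lower genes CHMo12 reaches furthest down (median -1.0) and CHMo5 least (median -0.58), while the higher genes sit alike in all 5 chm/+ libraries.

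A smaller set of lower genes was lower in chm/+ at both ages. Cyp6a2 and Cyp6a14, cytochrome P450 genes of the kind that oxidize toxins, were the lower ones among 70 P450 genes, of which 2 were higher (5.71% called, against 1.95% of all genes). Cyp6a2 stood at 1538, 1924, 1403 and 1458 in the wild-type libraries and 535, 381, 455, 369 and 431 in the chm/+ libraries, a log2 difference of -1.83 (SE 0.31, adjusted p = 0.00135), and was at -2.54 (adjusted p = 1.56e-05) when young. Cyp6a14 differed by -1.46 (SE 0.23, adjusted p = 0.000633) and when young by -2.01 (adjusted p = 5.67e-06). Ir54a, an ionotropic receptor gene, stood at 142, 92.9, 88.8 and 92.3 in the wild-type libraries and 5.19, 8.22, 6.43, 11.3 and 11.6 in the chm/+ libraries, with 2uo1 the highest of wild type, and differed by -2.35 (SE 0.20, adjusted p = 7.62e-07). The young difference was -1.19 (adjusted p = 0.000965). Ir76a, a related receptor gene, ranged from 460.1 to 633 and 286 to 385 (-0.67, SE 0.10, adjusted p = 0.000645), with -0.79 when young. phr, which encodes a photolyase that repairs ultraviolet damage to DNA, was at -1.25 and -1.76 at the 2 ages. 5-HT1B, a serotonin receptor gene, was at -0.95 and -1.27, with 2uo2 the lowest wild-type and CHMo12 the highest chm/+ library. The cuticle protein gene Cpr62Bb (-0.72 and -0.53) and the glutathione transferase gene GstE11 (-0.68 and -0.45) were called at both ages as well.

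Among the higher genes SMC2 stood first. It encodes a core ATPase of condensin, the ring complex that compacts chromosomes. SMC2 stood at 333.6, 312, 279.6 and 258 in the wild-type libraries and 1837, 1933, 1507, 2349 and 1719 in the chm/+ libraries, a log2 difference of 2.59 (SE 0.17, adjusted p = 2.66e-08), 6.03-fold, and the lowest chm/+ library lay far above the highest wild-type one. It was also higher when young, 1.20 (adjusted p = 0.000101), with means of 217 and 534. SMC2 was called in both column sets taken alone and without each of the 9 midlife libraries. Of the other 12 condensin and cohesin genes 0 were called, which left 7.69% of the list called, against 1.95% of all genes. Its partner gene glu was at 0.04 (adjusted p = 0.833), barr at 0.02 (adjusted p = 0.929), Cap-G at -0.20 (adjusted p = 0.227) and Cap-D2 at 0.00 (adjusted p = 0.992).

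Most of the other genes with high differences were also higher when young. nkd, which encodes an inhibitor of Wnt signalling, stood at 828, 786, 818 and 701 in the wild-type libraries and 2235, 1871, 1824, 1599 and 1939 in the chm/+ libraries, a log2 difference of 1.25 (SE 0.10, adjusted p = 2.01e-07), and at 1.12 (adjusted p = 2.46e-07) when young. pncr009:3L, a noncoding gene now annotated as a hairpin RNA, stood at 15.9, 21.6, 22.0 and 22.7 in the wild-type libraries and 94.8, 122, 90.4, 103 and 71.2 in the chm/+ libraries, 1.65 (SE 0.12, adjusted p = 1.09e-07). Both were free of overlap and were called in each column set alone. Cks30A, a subunit gene of the cyclin-dependent kinase complex, stood at 23.1, 10.96, 22.3 and 13.1 in the wild-type libraries and 85.6, 72.0, 114, 72.5 and 118 in the chm/+ libraries and differed by 1.74 (SE 0.20, adjusted p = 2.54e-05). CG16836, now BomT2 of the Bomanin immune peptides, stood at 893, 444, 1021 and 1058 in the wild-type libraries and 2859, 3559, 3787, 2843 and 1995 in the chm/+ libraries, 1.84 (SE 0.29, adjusted p = 0.000633), with 2.09 (adjusted p = 7.85e-05) when young. CG32444 was the most abundant of the 12 highest, at 4049 to 6462 in wild type and 10708 to 14185 in chm/+ (1.32, SE 0.18, adjusted p = 0.000179). CG32984 ran from 0.865 to 9.39 in wild type and 29.9 to 44.5 in chm/+, a log2 difference of 1.37. CG11349 ran from 10.2 to 24.7 in wild type and 69.0 to 117 in chm/+, a log2 difference of 1.48.

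UDP-glycosyltransferases attach sugars to toxins and hormones. Of 41 glutathione and UDP-glycosyl transferase genes 2 were higher and 1 lower (7.32% called, against 1.95% of all genes), the higher ones being Ugt37b1 and Ugt35a. CG5999, now annotated as Ugt37A3 and not in that list, stood at 34.7, 23.8, 26.6 and 14.9 in the wild-type libraries and 119, 73.1, 96.9, 152 and 209 in the chm/+ libraries (1.82, SE 0.29, adjusted p = 0.000838). Ugt37b1 stood at 381, 375, 205 and 242 in the wild-type libraries and 725, 735, 759.8, 864 and 658 in the chm/+ libraries (1.32, SE 0.26, adjusted p = 0.00683), and Ugt35a was at 0.70 (SE 0.17, adjusted p = 0.0322) with overlapping libraries. The Ugt35a call ended without any one of 2uo4, 2uo5, 2uo2, CHMo11, CHMo12 and CHMo5 (highest adjusted p = 0.168). All 3 were also higher when young, by 1.30, 1.54 and 0.81. Among P450 genes Cyp312a1 ranged from 28.3 to 46.3 in wild type and 61.5 to 74.9 in chm/+ (0.72, SE 0.13, adjusted p = 0.00328). Cyp304a1, at 0.82, passed only just (adjusted p = 0.0464) and was lost without 2uo4, CHMo2, CHMo3, 2uo1, 2uo2, CHMo11 and CHMo12 in turn (highest adjusted p = 0.196).

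Metabolic, signalling and muscle genes were also among those called. Gpdh, the glycerol-3-phosphate dehydrogenase gene that links glycolysis to lipid synthesis, stood at 11627, 12254, 11151 and 13817 in the wild-type libraries and 16522, 16967, 21729.9, 18267 and 18141 in the chm/+ libraries, 0.58 (SE 0.10, adjusted p = 0.00127), and at 0.94 (adjusted p = 2.52e-06) when young. Of 15 glycolysis enzyme genes it was the called one (6.67%, against 1.95% of all genes). Adh, alcohol dehydrogenase, was at 0.70 (SE 0.16, adjusted p = 0.0189) with overlapping libraries, lost without 2uo4, 2uo5, CHMo2 and CHMo12 in turn (highest adjusted p = 0.106). daw, an activin-like ligand gene, stood at 993, 907, 858 and 781 in the wild-type libraries and 1417, 1412, 1181, 2037 and 1525 in the chm/+ libraries and differed by 0.75 (SE 0.16, adjusted p = 0.0139), with 0.03 (adjusted p = 0.934) when young. That call ended without 2uo4 or 2uo5 (highest adjusted p = 0.0732). The thick-filament gene fln was higher (0.90, SE 0.17, adjusted p = 0.00378) and the troponin C gene TpnC73F lower (-0.74, SE 0.16, adjusted p = 0.0135, lost without 2uo5 at adjusted p = 0.0822). They were the called ones of 21 sarcomere genes (9.52%, against 1.95% of all genes).

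Of 33 cuticle genes 2 were higher and 2 lower (12.1%, against 1.95% of all genes). Cry, which here names the crystallin of the lens and not the clock photoreceptor, stood at 22.2, 18.4, 24.3 and 24.6 in the wild-type libraries and 79.3, 78.0, 51.2, 75.6 and 44.7 in the chm/+ libraries, 1.10 (SE 0.19, adjusted p = 0.00189), and at 1.14 (adjusted p = 0.000866) when young. Cpr72Ec, a cuticle protein of the corneal lens, stood at 2715, 3165, 2947 and 2839.7 in the wild-type libraries and 6899.5, 6715, 3478, 4737 and 4491 in the chm/+ libraries, with CHMo2 and CHMo3 well above the other chm/+ libraries. Its difference of 0.80 (SE 0.19, adjusted p = 0.0341) was lost without 2uo4, 2uo5, CHMo2, CHMo3, 2uo1, 2uo2 and CHMo11 in turn (highest adjusted p = 0.111). TwdlE was lower (-0.57, SE 0.10, adjusted p = 0.00223). Outside the list verm, which encodes a chitin deacetylase, was higher at both ages, by 1.07 and 1.08. Fer2LCH, the ferritin light chain gene, was lower from a high level, 30312 to 35309 against 21983 to 28156 (-0.40, SE 0.08, adjusted p = 0.00781), and was lost without 2uo5 (adjusted p = 0.0502).

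The difference between the midlife and the young genotype difference was then tested in the same fit. At midlife the genotype difference was more negative for 33 genes and more positive for 2, 35 calls in all (0.356%), and 655 genes had an unadjusted p under 0.05. Of the 35, 33 were called at midlife, 31 lower and 2 higher, and 3 were called when young, against 1.95% and 1.45% of all genes. The tested difference is computed from the midlife and young ones, so this overlap is partly built in. The 5 most negative were CG43175 (-4.26, SE 0.67, adjusted p = 0.00699), CG10814 (-3.64, SE 0.40, adjusted p = 6.23e-05), NimC4 (-3.23, SE 0.55, adjusted p = 0.00933), CG7763 (-2.95, SE 0.64, adjusted p = 0.0472) and Jhe (-2.94, SE 0.55, adjusted p = 0.0169). CG14153 (-2.61, SE 0.27, adjusted p = 6.23e-05), CG1942 (-2.36, SE 0.31, adjusted p = 0.000916), CG30148 (-2.24, SE 0.25, adjusted p = 6.23e-05) and CG4650 (-2.10, SE 0.29, adjusted p = 0.00104) were also among the more negative. PPO1 (-3.04, SE 0.68, adjusted p = 0.0618) and CG9673 (-3.10, SE 0.74, adjusted p = 0.102) had differences as large without passing. The 2 more positive genes were SMC2 (1.39, SE 0.23, adjusted p = 0.00826) and CG17005 (1.08, SE 0.21, adjusted p = 0.0204).

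Several of these calls ended when a single library was left out. Of 19 genes named here with this call, 11 did not lose it in any fit without a single midlife library that tested them. For CG43336, 1 of the 11, these were 5 of the 9 fits. CG7763 lost it without 2uo4, 2uo5, CHMo2, 2uo1, 2uo2 and CHMo11, spheroide (-2.73) without 2uo4, 2uo5, CHMo2, 2uo2 and CHMo11, Jhe without 2uo4 and CG17005 without 2uo5 or 2uo1, with highest adjusted p values of 0.152, 0.102, 0.0647 and 0.0618. The integrin genes scb and ItgalphaPS4 lost it without 2uo4, CHMo2, 2uo1 and CHMo11, and without 2uo4, 2uo5, CHMo2, CHMo3, 2uo1, 2uo2, CHMo11 and CHMo12, with highest adjusted p values of 0.0925 and 0.112. Act42A lost it without 2uo4, 2uo5, CHMo2, CHMo3 and 2uo1, and Tsp42Ec without 2uo4, 2uo5, CHMo2, CHMo3, 2uo1, CHMo11 and CHMo12, with 0.108 and 0.162. The count was 17 without 2uo4, 19 without 2uo5, 23 without CHMo2, 66 without CHMo5, 61 within the first column set and 1 within the second. CHMo12 was the lowest midlife chm/+ library for 21 of the 33 more negative genes.

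The midlife wild-type libraries also serve the comparison with age, so the change with age is given for the called genes side by side, without a correlation. The 122 lower genes had a median log2 change from youth to midlife of 0.83 in wild type and 0.27 in chm/+. The 70 higher genes had medians of -0.10 and 0.06. All these genes were chosen by their midlife genotype difference, so unlike changes with age in the 2 genotypes are partly built in. The same holds for the single genes that follow. For CG1942 the change with age was 2.70 in wild type (adjusted p = 1.45e-07) and 0.34 in chm/+ (adjusted p = 0.336). For SMC2 it was 0.42 (adjusted p = 0.0827) and 1.81 (adjusted p = 1.35e-07). Cyp6a2, lower at both ages, changed by -0.30 and 0.41, neither called.

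Called genes made up a larger share around chm on arm 2L than on the rest of the arm, a description with no test. Among the 25 measured genes on either side 3 of 50 were called (6.0%), among 100 on either side 11 of 200 (5.5%) and among 200 on either side 21 of 400 (5.25%), against 21 of 1304 (1.61%) on the rest of 2L and 1.95% of all genes. When young, 1 of the 50 (2.0%), 6 of the 200 (3.0%), 20 of the 400 (5.0%) and 10 of the 1304 (0.767%) were called, against 1.45% of all genes. Called in the same direction at both ages were 0 of the 50, 3 of the 200 and 9 of the 400, against 2 of the 1304 and 53 of all 9831 genes. The 3 nearest were Pvf2, a growth factor gene of the PDGF and VEGF type, at -0.76 (SE 0.17, adjusted p = 0.0237), CG31909 at 1.24 (SE 0.31, adjusted p = 0.0409) and CG13793 at 1.15 (SE 0.28, adjusted p = 0.0345). Their calls each ended without several single libraries, with highest adjusted p values of 0.139, 0.188 and 0.155. The libraries were for Pvf2 2uo4, 2uo5, CHMo2 and CHMo12, for CG31909 2uo4, 2uo5, CHMo2, 2uo2, CHMo11, CHMo12 and CHMo5 and for CG13793 2uo4, 2uo5, 2uo2, CHMo11, CHMo12 and CHMo5. Farther out lay Cks30A and its neighbour CG17005, CG32984, Ugt37b1 and Gpdh, described above, and 5 more called genes chosen after their values were seen: Fic (-0.41, young -0.39), frj (0.36, young 0.39), CG11319 (-0.65, young -0.76), CG3476 (0.68, young 0.32) and Sirup (-0.91, young -0.42). Gene order is that of a later annotation than the BDGP5 build of the table, so no coordinates are given. With array weights 52 genes of the window were called (13%, against 6.37% of all genes) and with the column set as a term 37 (9.25% against 3.63%). The first column set gave 25 (6.31% against 2.8%) and the second 4 (1.01% against 0.165%).

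**Figure D4:**
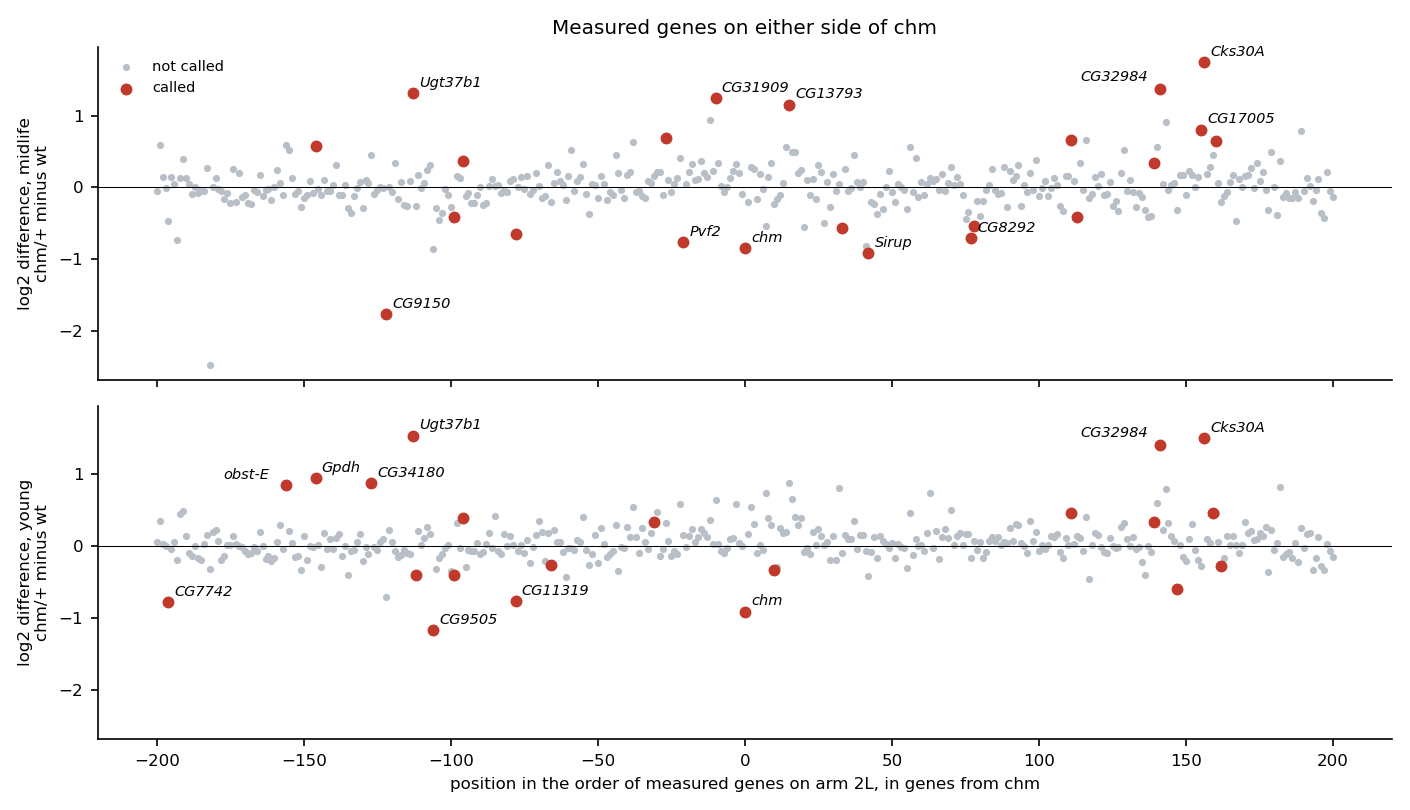
Log2 difference between chm/+ and wild type at midlife (top) and at 7 days (bottom) for the 200 measured genes on either side of chm, in their order along arm 2L, with called genes in red. Besides chm, 21 genes are called at midlife and 20 when young, spread over the window, with Cks30A, CG32984 and Ugt37b1 high in both panels.

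By arm, called genes made up 2.49% of genes on 2L (43 of 1726), 2.62% on 2R (51 of 1945), 2.3% on 3L (42 of 1828), 1.64% on 3R (39 of 2371) and 0.996% on X (16 of 1606), and 0 of 86 on chromosome 4. On X 14 of the 16 were lower. In 12 places called genes of the same direction were neighbours in the order of measured genes, forming runs with 26 genes in all. Same direction was part of the definition of a run, and called neighbours of opposite direction were not counted. The serine protease run on X and the Tsp42E run on 2R held 3 genes each.

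Of 33 antimicrobial and immune-induced genes 0 were higher and 1 lower (3.03%, against 1.95% of all genes called), with a median of 0.22. The Bomanin gene CG16836, higher in chm/+ as given above, is not in that list. The called member was Drsl5, a drosomycin-like peptide gene, at -1.24 (SE 0.29, adjusted p = 0.0237), with overlapping libraries and lost without 2uo4, 2uo5, CHMo11 and CHMo12 in turn (highest adjusted p = 0.133). Drs was at 1.84 (adjusted p = 0.293), Mtk at 1.53 (adjusted p = 0.433) and PGRP-SA at -1.11 (adjusted p = 0.0555). The summed level of the list ran from 132200 to 285100 in wild type and 147900 to 492900 in chm/+. Turandot genes encode secreted stress peptides, and all 5 measured were below 0, with a median of -1.33 and 1 called (20%, against 1.95% of all genes). That one was TotB (-1.33, SE 0.29, adjusted p = 0.0132, lost without 2uo5 at adjusted p = 0.0824), and TotM, at -2.47 (adjusted p = 0.184), was not called.

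Lists of housekeeping and neural genes had small medians, with most members on 1 side of 0 in some and few calls. Proteasome genes had 33 of 34 below 0, a median of -0.15 and 0 called, and cytosolic ribosomal protein genes 72 of 82 below 0, a median of -0.18 and 0 called. Presynaptic release genes had 20 of 23 above 0, a median of 0.21 and 0 called. The 9 neuronal marker genes had a median of 0.34, with elav at 0.41 (adjusted p = 0.475) and the sodium channel gene para at 1.21 (adjusted p = 0.24), and their sum ran from 100000 to 156000 in wild type and 134400 to 216800 in chm/+. Photoreceptor markers had a median of 0.04 and glial genes of 0.06, with 0 called in either. Fat body markers had a median of -0.01 and overlapping sums, 127200 to 267200 against 156100 to 430600. These sums overlap between the genotypes for all 4 cell types, and the part of cell composition was not tested. Among 18 genes of transmitter synthesis and transport the glutamate transporter gene Eaat2 was called (5.56%, against 1.95% of all genes). Eaat2 was at 0.29 (SE 0.07, adjusted p = 0.0427) and was lost without 2uo4, 2uo5, CHMo2, CHMo3, 2uo2 and CHMo12 in turn (highest adjusted p = 0.178). Of 46 lists sought, 44 had at least 3 measured genes and 17 a called one.

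**Figure D5:**
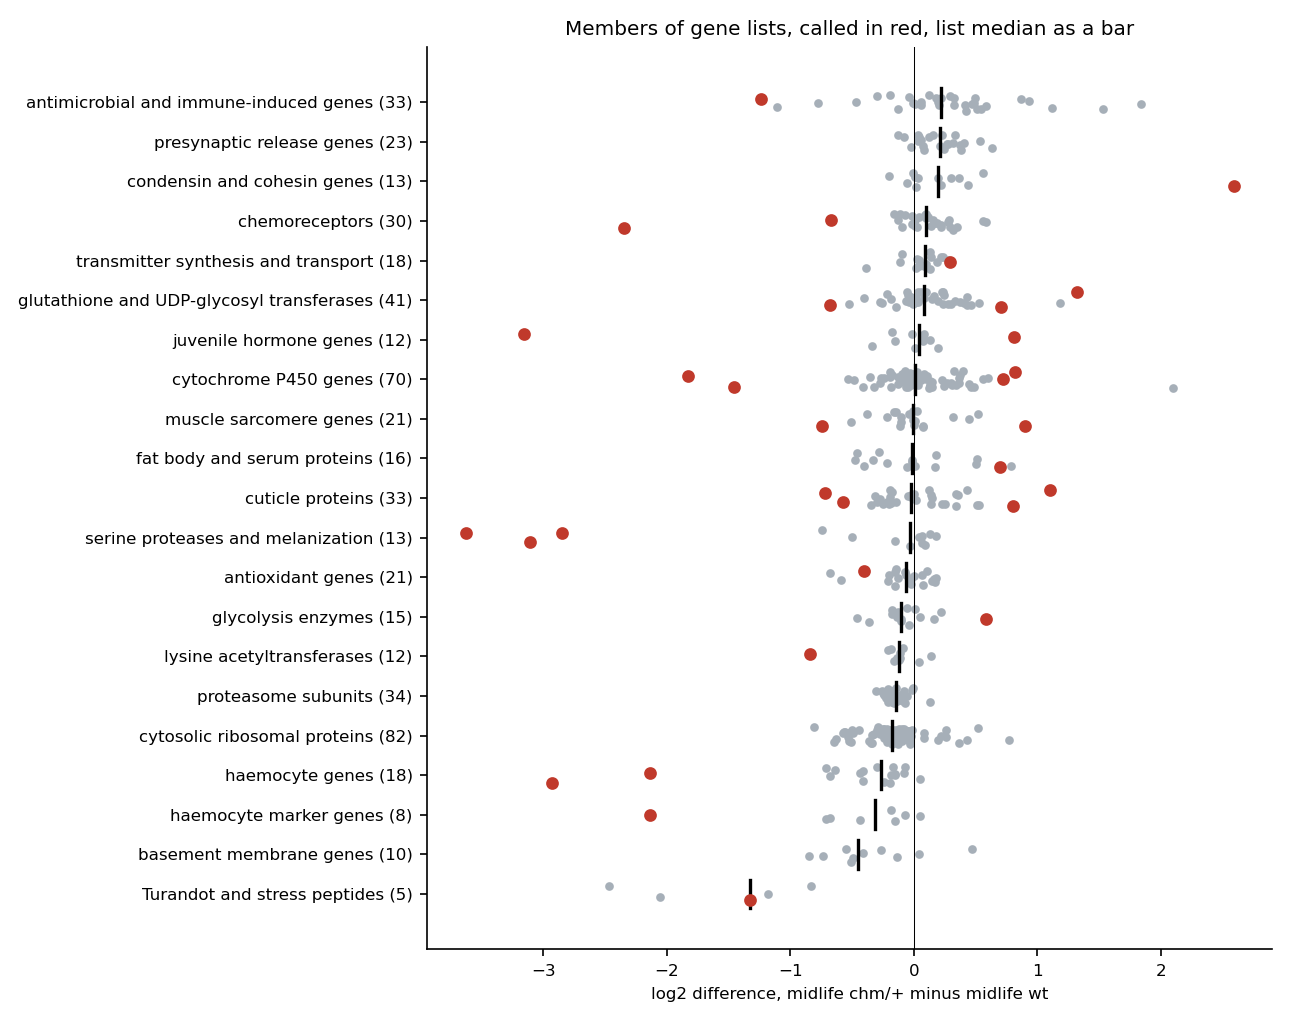
Log2 difference between midlife chm/+ and midlife wild type for each measured member of 21 gene lists, with the number of members in brackets, called members in red and the list median as a bar. Red points lie far to the left of the list median in the serine protease list (median -0.03, the red points including CG10814) and the haemocyte list (-0.27). In the juvenile hormone list (0.04) Jhe lies far to the left (-3.16) and jhamt to the right (0.81). The proteasome (-0.15) and ribosomal protein (-0.18) lists hold no called member.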

How the data were processed

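Polyadenylated RNA was sequenced from 9 midlife and 11 young libraries, each from pooled heads of males. The deposited table holds 1 signal value per gene and library, normalized counts that the authors made with TopHat2 2.0.5 and edgeR on the BDGP5 build, per the submitters' processing notes, and it holds no raw counts. How reads were assigned to strands or to overlapping genes is not given in the sources used here. Low values came out as whole multiples of a step for 17.9% to 91.3% of genes per column (within 0.1 step, in the 9 columns where a step could be fitted), so reads were not recovered, no count test was run and depth stays unknown. Columns were tied to groups by the age and genotype in their names and not to single samples.

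Values were taken as log2(value + 14.48), 0.5 CPM of the mean column total, and fitted in limma 3.58.1 (R 4.3.3) with 1 mean per group over all 20 libraries, a mean trend, two-sided tests and Benjamini-Hochberg adjustment over 9831 genes. The filter of 1 CPM in at least 4 libraries removed 0 genes. The procedure was tested on simulated data. No 2 libraries were near-identical: the smallest SD of the log2 ratio between replicates was 0.204. Of 9831 genes 226 had no symbol in the table and 3 of these were named from the annotation. For gene order 9485 genes matched a later annotation, 9368 of them by ID.

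Named genes are chm, the 12 highest and 12 lowest called differences, the 10 smallest p values, up to 4 called members per list, the 5 largest differences between ages each way among called genes, and called genes among 25 neighbours on either side of chm. Other named genes were chosen after their values were seen. The comparison, the members and the gene lists were chosen with earlier results of these data known, so lists are described by counts and medians and not tested. Alternatives were the pseudocount (0.125 and 2 CPM), the filter (none, 5 CPM), the scaling, the midlife libraries alone, array weights and no trend. The column sets, the column number as a block, left-out libraries and stricter thresholds were tried too.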

Additional observations from a re-analysis of the deposited data

Results flagged for a closer look

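For 19 of the named genes the midlife genotype difference departed from the young one by the test of that difference itself (adjusted p under 0.05 in limma). On the log2 scale the difference between the ages was -4.26 for CG43175, -3.64 for CG10814, -3.23 for NimC4, -2.95 for CG7763, -2.94 for Jhe, -2.73 for spheroide, -2.61 for CG14153, -2.36 for CG1942, -2.24 for CG30148, -2.21 for Myo61F, -2.1 for CG4650, -1.84 for CG30087, -1.57 for CG43336, -1.3 for Tsp42Ec, -0.978 for ItgalphaPS4, -0.889 for Act42A and -0.847 for scb. It was 1.39 for SMC2 and 1.08 for CG17005.

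A single library lay far from the others of its group in 14 of 158 groups examined (8.86%), where chance alone gives about 1 in 20. Among wild-type libraries 2uo4 was far above the rest for Jhe (2102 normalized counts) and Myo61F (723.3), 2uo5 for Cpr62Bb (528.3) and Fer2LCH (35310) and 2uo1 for Ir54a (142.3). 2uo1 was far below the rest for pncr009:3L (15.92). 2uo2 was far above the rest for jhamt (79.69) and far below for CG31909 (5.757) and 5-HT1B (459.1). Among chm/+ libraries CHMo5 was far above the rest for CG14153 (509.5) and Cyp6a14 (281.3), CHMo11 for CG11349 (116.9), CHMo12 for 5-HT1B (429.7) and CHMo3 for CG43336 (25.51).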

How the results depend on the processing

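The chm difference stayed called with a log2 value between -0.77 and -0.88 under every alternative fit. The midlife count of 192 (70 higher, 122 lower) was 118 (46 and 72) in the 9 midlife libraries alone, 626 (281 and 345) with array weights, 357 (154 and 203) with the column set as a term, 16 (8 and 8) in the second column set, 125 (39 higher) without 2uo2, CHMo12 and CHMy2, with 106 higher when the column set was added as well, 108 (32 and 76) at an adjusted p under 0.01 and 62 (15 and 47) at 2-fold or more. The young count of 143 was 3194 (1614 higher, 1580 lower) with array weights, 394 (261 and 133) with the set term, 292 (201 and 91) in the first column set, 17 (9 and 8) in the second, 978 (607 and 371) without the 3 libraries and with the set term, 81 (50 and 31) at 0.01 and 33 (19 and 14) at 2-fold. The count of 35 for the difference between ages was 100 (8 more positive, 92 more negative) with array weights, 61 (58 more negative) in the first column set, 1 (0 and 1) in the second, 1 more positive without the 3 libraries, 55 (1 and 54) with the set term added, 13 (1 and 12) at 0.01 and 22 (20 more negative) at 2-fold. With single midlife libraries left out, the midlife count ran from 112 to 248 (38 to 107 higher, 74 to 156 lower), the young count from 119 to 150 (75 to 93 and 44 to 57) and the count of the difference between ages from 17 to 66 (1 to 2 and 15 to 64). Stricter thresholds leave fewer calls by construction, and the cause of the other shifts was not tested. Of the 79 genes named with a midlife call, 60 did not lose it in any fit without a single midlife library that tested them. Among these 60, CG43336 and CG8299 were tested in 5 of the 9 such fits. The call was kept by 78 with the columns centred on the median log2 ratio and by 56 in the 9 midlife libraries alone. It was kept by 60 in the first column set and 14 in the second. Of the 79 genes 0 changed direction. Of the 110 genes with a serine protease number 19 were called with array weights, where 6.37% of all genes were called.

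The column names carry numbers, of which 2 and 5 are shared by the midlife groups. These are not the replicate numbers of the sample labels, which could not be tied to single columns. Same-numbered libraries deviated from their group means with correlations of 0.412 and 0.126, only 2 pairs, so they share a number and no known pairing. With the column number as a block the midlife count was 127 (46 higher, 81 lower) and the young count 153. The count for the difference between ages was 39, with 4 more positive, and 61 of the 79 named genes kept their call. Depth is unknown, so no counting error is given, and the differences of genes near 14.48 normalized counts are the most understated.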
